A study of Mus musculus with 6 samples.

Results

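The genes described here are 10 that astrocytes use for their housekeeping work: the glutamate transporters Slc1a2 and Slc1a3, glutamine synthetase Glul, the potassium channel Kcnj10, the water channel Aqp4, the connexins Gja1 and Gjb6, the folate enzyme Aldh1l1, the secreted protein gene Mfge8 and the transcription factor gene Sox9. They were chosen by name, and each matched 1 row among 41386 genes in the deposited table. RNA-seq had been run on hippocampus of male C57BL/6 mice at 56 days of age, in 3 sham libraries and 3 ischemia/reperfusion (I/R) libraries. In the I/R group a filament closed the left middle cerebral artery (1.5 h) before 24 h of restored flow, whereas sham mice had the surgery without the filament. The tissue came from the operated side, and several hippocampi were pooled for each library, so that p-values measure the spread between pools. No transgene, Cre line or drug was part of either group. The question was how the housekeeping genes of astrocytes stood 24 h after blood flow returned, and whether they moved together.

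Astrocytes surround synapses and wrap blood vessels with their end-feet. They take up glutamate and potassium that active neurons release, turn glutamate into glutamine, and pass ions and small molecules to each other through gap junctions. After injury they become reactive and switch on genes such as Gfap and Vim, while the housekeeping genes may follow a course of their own.

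The start of each gene was read from RefSeq promoter windows on GRCm38.p6, which held 8 of the 10 genes. Aqp4 and Sox9 had no entry. In 7 of the 8 the window lay at the 5′ end of the gene as RefSeq lists it, or 25 bases inside it. The Slc1a2 window lay 48199 bases downstream of that end, so it was left out of the counts. Windows of 250 bases before and 50 after the start were searched on both strands for 4 motifs: TTGGC for nuclear factor I (NFI), TGACTCA for AP-1, TTCNNNGAA for STAT, and ACAAAG or ACAATG for SOX proteins. Positions count from 0 at the first transcribed base. No 2 of these matches overlapped in the windows printed. The 250 bases upstream are printed for 3 genes, Glul and Kcnj10 because they held the NFI letters, whose factors are among the astrocyte regulators described later, and Gja1 because it held the AP-1 letters. All 3 are on the plus strand, at chr1:153899679-153899928 for Glul, chr1:172340960-172341209 for Kcnj10 and chr10:56377050-56377299 for Gja1. Capitals mark the NFI letters (either strand) in Glul and Kcnj10 and the AP-1 letters in Gja1.
Glul: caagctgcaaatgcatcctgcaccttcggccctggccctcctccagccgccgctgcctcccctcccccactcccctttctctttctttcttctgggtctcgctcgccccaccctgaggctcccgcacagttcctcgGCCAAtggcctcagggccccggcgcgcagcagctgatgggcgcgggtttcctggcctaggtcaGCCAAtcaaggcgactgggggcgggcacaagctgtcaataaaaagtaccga
Kcnj10: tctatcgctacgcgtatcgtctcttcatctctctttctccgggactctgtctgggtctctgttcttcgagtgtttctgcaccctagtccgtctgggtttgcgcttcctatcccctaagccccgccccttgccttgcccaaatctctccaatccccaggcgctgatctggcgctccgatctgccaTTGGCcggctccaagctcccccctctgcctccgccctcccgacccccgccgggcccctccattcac
Gja1: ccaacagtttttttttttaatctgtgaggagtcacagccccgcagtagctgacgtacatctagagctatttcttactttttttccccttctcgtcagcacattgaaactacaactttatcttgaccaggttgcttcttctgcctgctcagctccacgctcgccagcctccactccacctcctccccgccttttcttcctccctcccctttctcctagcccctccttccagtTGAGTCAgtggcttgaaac
The NFI letters were in 2 of the 7 windows, Glul and Kcnj10, and in 46.9% of 32544 promoter windows of all genes. Glul held them at positions -114 and -51 from the start. Kcnj10 held them at -66 and again at 7, past the printed stretch. AP-1 letters were in 1 of the 7, Gja1 at -19, against 5.19% of all windows, STAT letters in 1, Slc1a3 at -96, against 8.33%, and SOX letters in 1, Kcnj10 at 0, against 28.4%. These matches are descriptions of letters and not measured binding sites.

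The libraries held 37493042 to 44788547 counts. Levels are given as CPM, gene counts scaled for depth after TMM adjustment (trimmed mean of M-values) of the library sizes, whose factors were 1.06 to 1.15 for I/R libraries and 0.908 to 0.920 for sham. Of 18569 genes tested, 7756 (41.8%) were differentially expressed (DEG: adjusted p under 0.05 by edgeR's quasi-likelihood test and a fold change over 1.2), 4054 (21.8%) higher and 3702 (19.9%) lower in I/R. With library size alone the median change over all genes was 0.28 on the log2 scale in place of 0.03, so each change below is relative to the scaling. The labelled tissue held hippocampal neuron genes. Prox1, a marker of dentate granule cells, was at 123 to 149 CPM in sham and Fibcd1, a gene of CA1 neurons, at 194 to 206 CPM. They were at 69.3 to 91.8 and 23.6 to 66.8 CPM in I/R. Choroid plexus markers set libraries apart within both groups: the summed level of the 8 genes was 1609, 3640 and 41.1 CPM in I/R replicates 1, 2 and 3 and 41.4, 2705 and 4470 CPM in the sham replicates.

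With TMM scaling most of the housekeeping genes were lower after I/R, but not all of them. Of the 10, 6 fell (Slc1a2, Slc1a3, Glul, Gja1, Gjb6 and Mfge8), 2 rose (Aqp4 and Sox9), and Kcnj10 and Aldh1l1 did not pass the test. Their median log2 fold change was -0.51, from -0.96 for Slc1a2 to 0.68 for Sox9, beside 0.03 over all genes. All 3 I/R libraries lay below all 3 sham libraries in 7 of the genes, against 28.1% of all genes tested, and above in 2, against 29.3%. Lower calls made 6 of 10 here against 19.9% of all genes, and higher calls 2 of 10 against 21.8%. With library size only 4 of the 10 fell and 3 rose, with log2(FPKM + 0.1) also 4 and 3, and with log2(FPKM + 1) 3 and 3, Aldh1l1 being the third that rose. All-gene medians were then 0.28, 0.26 and 0.18, and DEGs in either direction numbered 8361, 8324 and 8090. Shares of all genes by direction were not counted for these scalings, so 19.9% and 21.8% do not apply to them. As plain shares of a library's counts, the 10 genes together took 0.557% to 0.620% in sham and 0.406% to 0.447% in I/R. Slc1a2 and Glul made up most of that gap, at 0.430% to 0.484% in sham and 0.277% to 0.321% in I/R, while the other 8 genes together took 0.127% to 0.136% in sham and 0.121% to 0.129% in I/R, which overlapped. In whole tissue, fewer astrocytes and less RNA per astrocyte cannot be told apart.

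**Figure D1:**
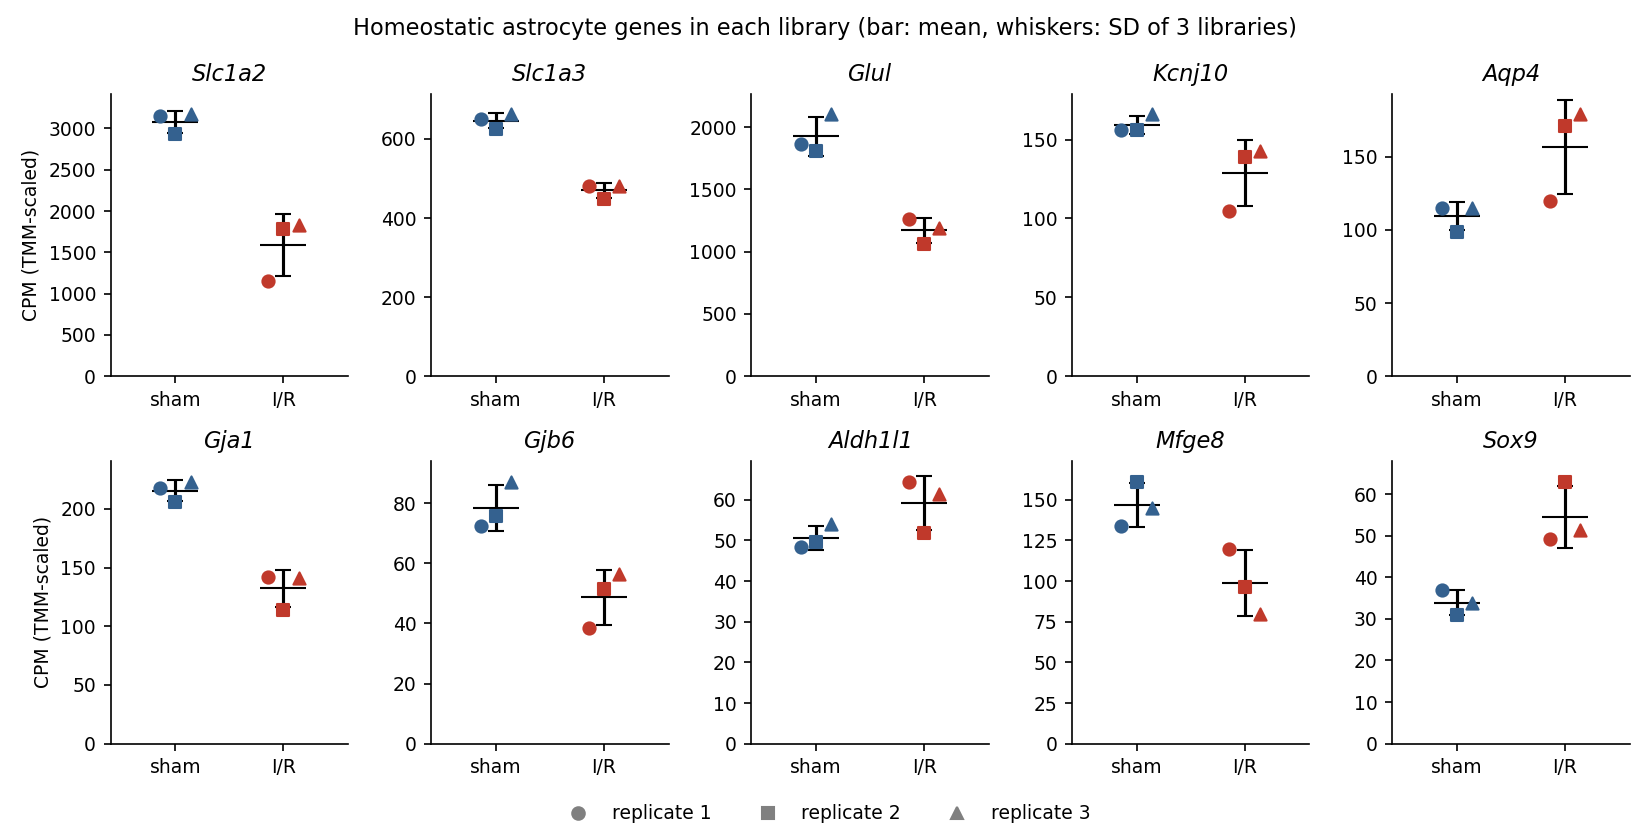
Level of each gene in CPM (vertical axis, from 0) in the 3 sham (blue) and 3 I/R (red) libraries, with marker shape for the replicate number, the mean as a bar and the SD as whiskers. The groups overlap for Aldh1l1 alone, and I/R replicate 1 (circle) sits apart for Slc1a2, at 1152 CPM against 1781 and 1830.

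Slc1a2 encodes GLT-1, the main glutamate transporter of the forebrain, and showed the lowest fold change of the 10. It lies on chromosome 2 from 100562123 to 100694513, plus strand (coordinates of the genes here are on the BALB/cJ assembly of the table). Its level was 1152, 1781 and 1830 CPM in I/R replicates 1, 2 and 3 and 3146, 2931 and 3170 CPM in the sham replicates. All I/R libraries were below all sham libraries, and replicate 1 was the lowest by a wide margin. The fitted level in I/R was 51.5% of sham, a log2 fold change of -0.96 with a standard error (SE) of 0.20, a 95% interval of -1.43 to -0.49 and an edgeR adjusted p of 0.00756. Without I/R replicate 1 it was -0.77.

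Slc1a3 encodes GLAST, the second astrocyte glutamate transporter, on chromosome 15 from 5488383 to 5565189, minus strand. Its level was 482, 449 and 481 CPM in I/R and 651, 626 and 662 CPM in sham. The groups did not overlap, and the I/R libraries were close to each other, with a coefficient of variation of 3.95% against 23.8% for Slc1a2. The log2 fold change was -0.46 (SE 0.11, 95% interval -0.70 to -0.21, edgeR adjusted p of 0.0104), which left 72.8% of the sham level. Without sham replicate 3 the adjusted p was 0.0520, and with library size only the log2 fold change was -0.20 with an edgeR adjusted p of 0.142.

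Glul encodes glutamine synthetase, the enzyme that turns the captured glutamate into glutamine, on chromosome 1 from 152908368 to 152918610, plus strand. It stood at 1259, 1058 and 1193 CPM in I/R and at 1862, 1809 and 2101 CPM in sham, without overlap. Its log2 fold change was -0.72 (SE 0.14, 95% interval -1.05 to -0.39, edgeR adjusted p of 0.00586), or 60.8% of sham. Its counts are less certain than those of the other genes, because 11.9% of the 50-base stretches of its transcripts also occur in transcripts of other genes, among them the pseudogene Glns-ps1. Its start also overlaps Teddm2 on the other strand, which had 289 counts in all sham libraries together. For the other 9 genes the shared stretches made at most 1.53%.

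Among 9 further genes of the glutamate-glutamine cycle 6 fell and 2 rose, beside 19.9% and 21.8% of all genes tested. Their median log2 fold change was -0.41. The falls include the vesicular glutamate transporters of neurons, Slc17a7 at -1.37 (edgeR adjusted p of 0.0165) and Slc17a6 at -0.57 (0.00636). The rises were the cystine/glutamate exchanger gene Slc7a11 at 1.39 (0.00177) and the neutral amino acid transporter gene Slc38a2 at 0.58 (0.00465). Transporters made mainly by neurons were thus among the falls. The 9 neuron markers all fell, with a summed level of 2132, 3412 and 3765 CPM in I/R against 6504 to 6788 CPM in sham (Rbfox3 -0.75, Tubb3 -1.02), and the part of this in the cycle genes was not tested.

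Kcnj10 encodes Kir4.1, the inward rectifier channel through which astrocytes take up potassium, on chromosome 1 from 171453728 to 171486930, plus strand. Its level was 105, 139 and 143 CPM in I/R and 156, 156 and 166 CPM in sham. Every I/R library was below every sham library, but the change did not pass the test at a log2 fold change of -0.31 (SE 0.13, 95% interval -0.60 to -0.02, edgeR adjusted p of 0.0833). Without I/R replicate 3 it passed, at -0.42 with an edgeR adjusted p of 0.0453. Leaving out I/R replicate 1 gave an edgeR adjusted p of 0.0248, but a log2 fold change of -0.18, under the fold limit. As a share of the library the groups overlapped, at 0.0120%, 0.0148% and 0.0151% in I/R against 0.0144%, 0.0141% and 0.0152% in sham.

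Aqp4, the water channel of astrocyte end-feet on chromosome 18 from 12386686 to 12401317, minus strand, moved the other way. Its level was 120, 171 and 179 CPM in I/R and 115, 98.5 and 115 CPM in sham. The groups did not overlap, though I/R replicate 1 was only just above the sham libraries. The log2 fold change was 0.52 (SE 0.16, 95% interval 0.16 to 0.88, edgeR adjusted p of 0.0294), a 1.43-fold rise. The call depended on the libraries used. Adjusted p-values were 0.109 and 0.0995 without I/R replicate 2 or 3, and 0.0718, 0.123 and 0.0777 without sham replicate 1, 2 or 3. With I/R replicate 1 left out the log2 fold change was 0.67 and the adjusted p 5.57e-06.

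The genes of proteins that anchor Aqp4 and Kir4.1 at the end-foot, or work beside them, fell or did not pass. Of 9 such genes tested, 4 fell and none rose by edgeR, beside 19.9% and 21.8% of all genes tested. With the same fold limit, 0 rose and 5 fell by an unadjusted p under 0.05, 0 and 5 by DESeq2 and 0 and 4 by limma-voom. The median log2 fold change was -0.35. Dmd, which encodes dystrophin, fell by 0.78 on the log2 scale (edgeR adjusted p of 0.00246), the channel gene Kcnj16 by 0.71 (0.00388) and the matrix protein gene Agrn by 0.58 (0.00161). Dtna was not analysed here. Aqp4 was called higher and none of these genes was. The ratio of Aqp4 to Kcnj10 is given with the other ratios below.

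The gap junction genes of astrocytes both fell. Gja1 encodes connexin 43, the main connexin of astrocytes, on chromosome 10 from 54151670 to 54164924, plus strand, and its upstream sequence is printed above. It was at 142, 114 and 141 CPM in I/R and 218, 206 and 223 CPM in sham, without overlap. Its log2 fold change was -0.70 (SE 0.11, 95% interval -0.96 to -0.45, edgeR adjusted p of 0.00228). Gjb6, which encodes connexin 30 and lies on chromosome 14 from 50223222 to 50233524, minus strand, was at 38.6, 51.4 and 56.3 CPM in I/R and 72.3, 75.9 and 87.1 CPM in sham. Its groups did not overlap either, and its log2 fold change was -0.69 (SE 0.15, 95% interval -1.03 to -0.35, edgeR adjusted p of 0.00766). In I/R replicate 1, Gja1 was at the top of its group and Gjb6 at the bottom.

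The other connexin and pannexin genes did not all follow them. Of 10 tested, 3 rose and 3 fell, beside 21.8% and 19.9% of all genes tested. Their median log2 fold change was 0.29. Gjb2 rose by 1.21 on the log2 scale (edgeR adjusted p of 0.0344), though its groups overlapped, Gjb1, a connexin of oligodendrocytes, by 1.16 (0.00545) and Gja5, a connexin of arterial endothelium, by 1.06 (0.0181). Panx2 fell by 1.44 (0.000678), Gjd2, the connexin of neurons, by 0.99 (0.00293) and Gjc3 by 0.42 (0.0396), though the groups of Gjc3 overlapped.

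Aldh1l1 encodes a cytosolic folate enzyme that is a widely used marker of astrocytes, on chromosome 6 from 88464632 to 88585974, plus strand. It was at 64.4, 51.8 and 61.4 CPM in I/R and 48.4, 49.6 and 54.0 CPM in sham, and I/R replicate 2 lay within the sham range. The log2 fold change of 0.22 (SE 0.10, 95% interval -0.02 to 0.47) did not pass the test (edgeR adjusted p of 0.12). With library size only it was 0.48 with an adjusted p of 0.0124, and was called higher. Under neither scaling was it lower. Of 9 other enzymes of folate metabolism 5 rose and none fell by edgeR, beside 21.8% and 19.9% of all genes tested. With the same fold limit, 5 rose and 0 fell by an unadjusted p, 5 and 0 by DESeq2 and 5 and 0 by limma-voom. Their median was 0.32. The mitochondrial enzymes led, with Mthfd2 at 2.20 (adjusted p of 0.000315), Aldh1l2 at 1.67 (0.00810) and Shmt2 at 1.22 (0.000673).

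Mfge8 encodes a secreted protein that bridges phosphatidylserine on dying cells to integrins of phagocytes. It is on chromosome 7 from 78834788 to 78850071, minus strand. Its level was 120, 96.6 and 79.6 CPM in I/R and 134, 161 and 145 CPM in sham, without overlap but with a wide spread in I/R. The log2 fold change was -0.57 (SE 0.15, 95% interval -0.92 to -0.22, edgeR adjusted p of 0.0182). It did not pass without sham replicate 2 (adjusted p of 0.0731) or sham replicate 3 (0.0528), or with library size only (-0.31, adjusted p of 0.173). Among 11 other genes that recognise or clear dying cells 4 rose and 2 fell, beside 21.8% and 19.9% of all genes tested. Pros1, another bridging ligand, rose by 2.27 on the log2 scale (edgeR adjusted p of 0.000280), and the integrin genes Itgb3 and Itgav, whose products form the Mfge8 receptor, by 1.14 (0.00717) and 0.78 (0.00134). The receptor kinase genes Tyro3 and Mertk fell by 0.41 (0.0222) and 0.37 (0.0190). Axl, also a receptor kinase gene, was at 0.37 (0.0750) without passing, with every I/R library above every sham library. The ligand gene Gas6 was at -0.39 (0.0607) without passing, with overlapping groups. Itgb5, whose product also pairs with that of Itgav as an Mfge8 receptor, was at 0.15 (0.564), with overlapping groups.

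Sox9, the transcription factor that drives astrocyte formation and marks astrocyte nuclei in adult brain, had the highest fold change of the 10. It is on chromosome 11 from 111926681 to 111932214, plus strand. Its level was 49.1, 62.9 and 51.4 CPM in I/R and 36.9, 30.9 and 33.9 CPM in sham, and every I/R library was above every sham library. The log2 fold change was 0.68 (SE 0.12, 95% interval 0.40 to 0.97, edgeR adjusted p of 0.00371), a 1.61-fold rise. It was called higher in all 18 refits, whereas Aqp4 was called in 11 of them.

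Of the other transcription factor genes of astrocytes listed, none was called higher as Sox9 was. By edgeR 9 of 11 tested fell and none rose, beside 19.9% and 21.8% of all genes tested. With the same fold limit, 0 rose and 9 fell by an unadjusted p, 0 and 9 by DESeq2 and 0 and 9 by limma-voom. The median log2 fold change was -0.81. Id4 fell by 0.97 on the log2 scale (adjusted p of 0.00155), Zbtb20 by 0.94 (0.000910) and Hes5 by 0.93 (0.0185). The 3 NFI genes were at -0.59 for Nfia (0.0148), -0.64 for Nfib (0.00312) and -0.81 for Nfix (0.00499). Sox8, a close relative of Sox9, fell by 0.91 (0.00162). Sox2 was at 0.22 (0.0892), under the fold limit, and Rorb at 0.26 (0.214). Every I/R library was above every sham library for Sox2, and its unadjusted edgeR p was 0.0439. Several of these factors are also made by neurons, whose markers fell, and the part of neurons in the falls was not tested.

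**Figure D2:**
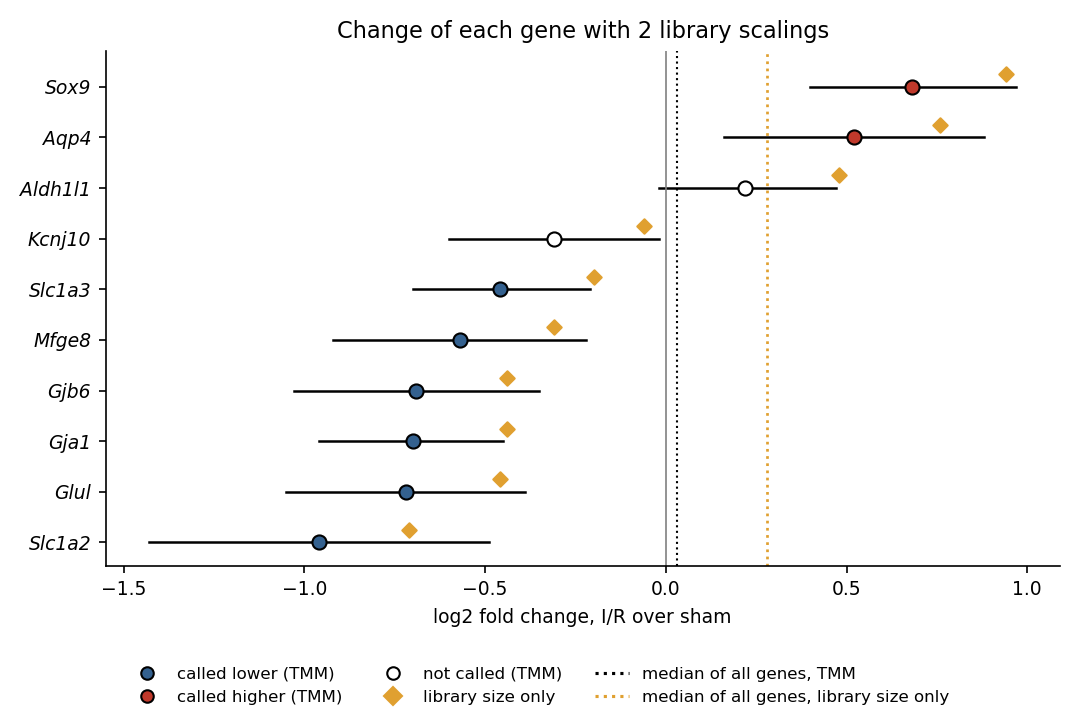
Log2 fold change of I/R over sham (horizontal axis) for each gene. Circles give the TMM-scaled fit with its 95% interval, filled by call, diamonds the same fit with library size only, and dotted lines the median of all genes, 0.03 and 0.28. Diamonds sit to the right of circles throughout, and no gene is on the other side of 0.

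By exact two-sided permutation of CPM, p was 0.1 for each of the 9 genes without overlap and 0.200 for Aldh1l1. With 3 libraries against 3, 0.1 is the smallest p possible. Slc1a2, Gja1, Gjb6 and Sox9 were called in all 18 refits with other scalings, tools, filters or libraries, Glul in 16, Slc1a3 in 13, Mfge8 in 12 and Aqp4 in 11. Kcnj10 was called in 1 and Aldh1l1 in 3. No gene of the 10 changed direction in any of them. In the main fit none passed a fold change over 2. Slc1a2 went past it in some refits, at a log2 fold change of -1.10 without I/R replicate 3 and -1.07 without I/R replicate 2.

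Levels between genes can be compared only per length. In sham, Glul had the highest level at 689 ± 55.7 CPM per kb of the listed transcript length (SD, n = 3), followed by Slc1a2 at 266 ± 11.4, Slc1a3 at 146 ± 4.19, Gja1 at 69.6 ± 2.82, Mfge8 at 63.0 ± 5.81, Gjb6 at 37.3 ± 3.68, Kcnj10 at 30 ± 1.06, Aqp4 at 21.5 ± 1.88, Aldh1l1 at 12.1 ± 0.698 and Sox9 at 8.19 ± 0.723. Gja1 and Mfge8 were within the sum of their SDs of each other, and the other neighbours in this order were farther apart. Glul ranked 39 and Slc1a2 170 among the 18569 genes tested. In I/R Glul stood at 419 ± 36.6 CPM per kb, Slc1a2 at 137 ± 32.7 and Slc1a3 at 106 ± 4.19. There Slc1a2 and Slc1a3 were within the sum of their SDs of each other. So were Aqp4 at 30.8 ± 6.27 and Kcnj10 at 24.2 ± 3.93, whereas in sham Aqp4 was below Kcnj10. Those SDs do not use that both genes were measured in the same libraries. The listed lengths of Aqp4 and Kcnj10 are 5090 and 5312 bases. Within a library their log2 ratio of CPM was 0.20, 0.30 and 0.33 in I/R against -0.44, -0.66 and -0.53 in sham.

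The authors' FPKM values gave another order of levels. For 6 of the 10 genes they had been divided by a shorter length than the one the table lists, such as 1858 in place of 11578 bases for Slc1a2 and 969 in place of 2792 for Glul. The same held for 67.5% of 17382 genes with over 100 counts. On that scale sham levels were 1817 ± 154 FPKM for Glul, 1518 ± 75.4 for Slc1a2 and 343 ± 12.1 for Slc1a3, so that Slc1a2 came much closer to Glul. Mfge8 at 114 ± 9.69 and Gjb6 at 67.4 ± 6.76 then stood at or above Gja1 at 63.7 ± 3.0. Glul ranked 10 and Slc1a2 18 by FPKM. The length does not enter a comparison of 1 gene between groups.

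The I/R libraries differed among themselves in which housekeeping genes they held. Replicate 1 was the lowest I/R library for 5 genes, Slc1a2 (-0.43 from the I/R mean on the log2 scale), Aqp4 (-0.36), Gjb6 (-0.32), Kcnj10 (-0.28) and Sox9 (-0.14). It was the highest for the other 5, Mfge8 (0.30), Aldh1l1 (0.13), Glul (0.11), Gja1 (0.11) and Slc1a3 (0.03, with replicate 3 also at 0.03). The log2 range over libraries was wider in I/R than in sham for all 10 genes, from 0.67 against 0.11 for Slc1a2 to 0.10 against 0.08 for Slc1a3. Replicate 1 was also the library with the lowest neuron markers, 2132 CPM, and the highest reactive astrocyte markers, 4928 CPM against 3129 and 3248 in replicates 2 and 3. Whether these go together was not tested.

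Ratios of 2 genes within a library do not depend on the scaling between libraries, and 14 were compared. In 9 the I/R libraries were all below sham, in 2 all above, and in 3 the groups overlapped. Many of the 14 share a gene, so they are not independent, and no share over pairs of all genes was computed. The exact permutation p was 0.1 for each of the 11 that separated, or 0.127 after Benjamini-Hochberg adjustment over the 14, so none could pass a threshold of 0.05 in this design. The sizes are given as differences of log2 ratios of CPM.

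Aldh1l1 served as the common partner of 9 ratios. Its own log2 fold change, 0.22 with TMM, enters the difference of each of them. Relative to it, Glul had a log2 ratio of 4.29, 4.35 and 4.28 in I/R and of 5.26, 5.19 and 5.28 in sham, a difference of -0.94. Gja1 had 1.15, 1.14 and 1.2 in I/R against 2.17, 2.05 and 2.05 in sham, a difference of -0.93. Both were steady within each group, with SDs of 0.03 to 0.07. Relative to Aldh1l1, Slc1a2 differed by -1.21, Gjb6 by -0.92, Mfge8 by -0.81, Slc1a3 by -0.68 and Kcnj10 by -0.54, all without overlap. Sox9 differed by 0.46, though I/R replicate 1 and sham replicate 1 were both at -0.39 to 2 decimals. Aqp4 overlapped, at 0.90, 1.72 and 1.55 in I/R against 1.25, 0.99 and 1.09 in sham.

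The end-foot channels parted. The log2 ratio of Aqp4 to Kcnj10 was 0.20, 0.30 and 0.33 in I/R against -0.44, -0.66 and -0.53 in sham, a difference of 0.82. The mean ratio of CPM was thus 0.686 in sham and 1.21 in I/R, with an SD on the log2 scale of 0.07 in I/R against 0.11 in sham. I/R replicate 1, in which both genes were lowest, had nearly the same ratio as the other I/R libraries.

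Among the glutamate genes, the log2 ratio of Slc1a2 to Slc1a3 was 1.26, 1.99 and 1.93 in I/R against 2.27, 2.23 and 2.26 in sham. The difference was -0.53, and without I/R replicate 1 it was -0.30. Glul to Slc1a3 differed by -0.26. Glul to Slc1a2 overlapped, at 0.13, -0.75 and -0.62 in I/R against -0.76, -0.70 and -0.59 in sham. The ratio of the connexin genes, Gja1 to Gjb6, was 1.88, 1.15 and 1.33 in I/R against 1.6, 1.44 and 1.36 in sham. Its mean differed by -0.01 and its spread was larger in I/R (SD 0.38 against 0.12). Without I/R replicate 1 the difference was -0.22, without overlap.

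**Figure D3:**
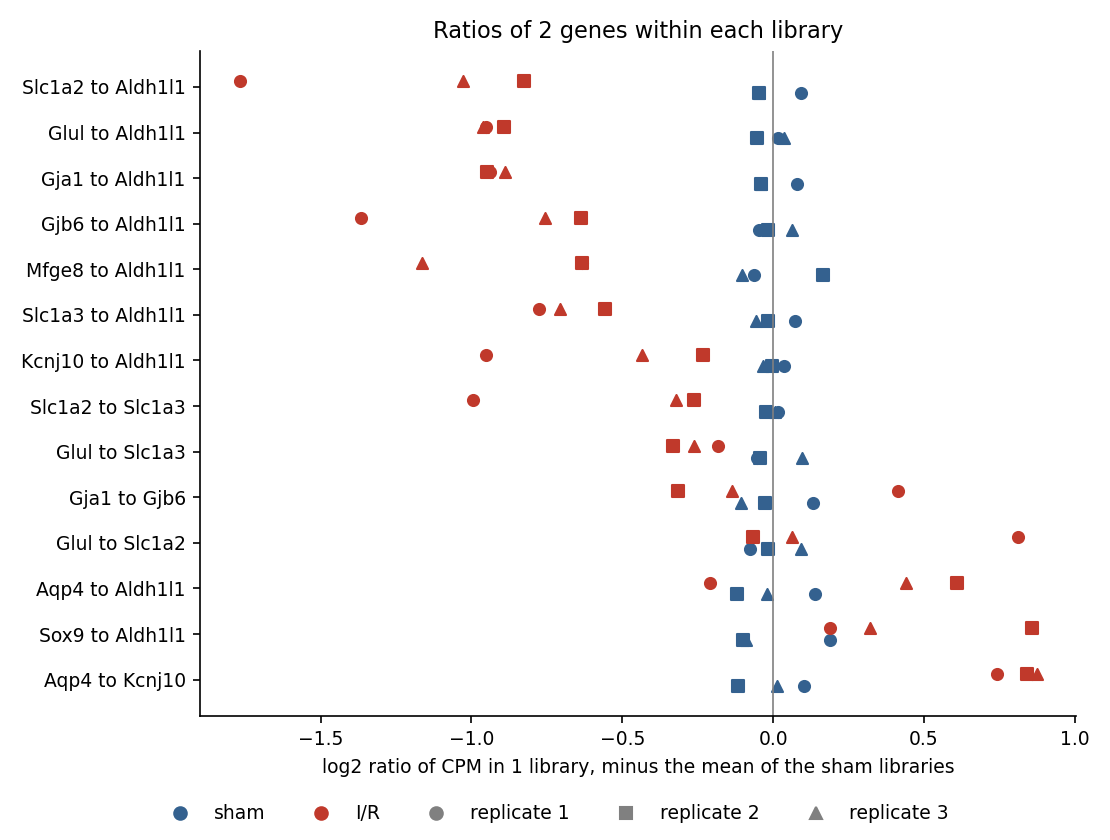
Log2 ratio of 2 genes within each library, minus the mean of the sham libraries (horizontal axis), for 14 pairs. Blue markers are sham and red I/R, with shape for the replicate number. Glul and Gja1 relative to Aldh1l1 form tight red groups near -0.94 and -0.93, Aqp4 to Kcnj10 forms one near 0.82, and the circle of I/R replicate 1 sits apart in the pairs with Slc1a2, among others.

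A list of 30 other astrocyte genes also had more falls than rises. By edgeR 19 fell, 3 rose and 8 did not pass, beside 19.9% lower and 21.8% higher over all genes tested. The median log2 fold change of the list was -0.49. The deepest falls were Etnppl at -1.44 (adjusted p of 0.000336), the GABA transporter gene Slc6a11 at -1.06 (0.000215), the zinc transporter gene Slc39a12 at -0.95 (0.00808), the proline dehydrogenase gene Prodh at -0.88 (0.000934) and the neurotensin receptor gene Ntsr2 at -0.84 (0.000878). The rises were the urea transporter gene Slc14a1 at 1.64 (0.000212), Chrdl1, a BMP antagonist, at 0.66 (0.0159) and the tissue factor gene F3 at 0.38 (0.00882). The summed level of the list was 8062 to 8284 CPM in I/R and 10711 to 11530 CPM in sham. Some of these genes, such as Clu and Apoe, are also made by other cells.

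Set against the mean log2 level of those 30 genes in the same library, a comparison chosen after seeing the data, Aqp4 was higher by 0.89, Aldh1l1 by 0.61 and Sox9 by 1.07 in I/R without overlap. Slc1a2 was at -0.59, Glul at -0.32, Gja1 at -0.31 and Gjb6 at -0.30, also without overlap. Slc1a3 at -0.06, Kcnj10 at 0.07 and Mfge8 at -0.19 overlapped. Each exact permutation p of the 7 that separated was 0.1, or 0.143 after adjustment over the 10.

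Genes of reactive astrocytes rose in the same libraries. Of 12 listed, 11 were tested and all 11 rose, beside 21.8% of all genes tested. Their median log2 fold change was 3.69, with Gfap at 2.31 (edgeR adjusted p of 0.000269) and Vim at 3.51 (0.000291). Hspb1 was below the count filter. Their summed level was 4928, 3129 and 3248 CPM in I/R against 542 to 580 CPM in sham. The rises of Aqp4 and Sox9 were small beside these. Several of the reactive genes, such as Vim, Cd44 and Timp1, are also made by vascular and immune cells.

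Markers of other cells moved as follows, where 21.8% of all genes tested rose and 19.9% fell. Among 9 microglia genes 4 rose and 4 fell (P2ry12 -1.67, Tmem119 -0.68), with a summed level of 382 to 536 CPM in I/R and 295 to 330 CPM in sham. Of 8 oligodendrocyte genes 1 rose and 3 fell (Mbp -0.39 without passing), with sums of 6466 to 7580 and 7597 to 9373 CPM, and of 4 genes of their precursors 2 fell (Pdgfra -0.05 without passing, Cspg4 -0.34), with 112 to 122 and 162 to 185 CPM. Endothelium had 5 of 7 higher and 2 lower (Cldn5 0.76, Pecam1 1.92), with 366 to 531 and 289 to 296 CPM. Pericytes had 2 of 5 higher and 2 lower (Pdgfrb 0.69, Rgs5 -0.43), with 165 to 180 and 183 to 197 CPM. Ependyma had 1 of 5 higher and 1 lower (Foxj1 0.70, Ccdc153 -0.97), with 41.2 to 64.7 and 33.4 to 49.1 CPM. Of the 8 choroid plexus genes none was called by edgeR (0 rose and 0 fell by an unadjusted p, 0 and 0 by DESeq2 and 0 and 0 by limma-voom), with Ttr at -0.40 and Folr1 at -0.35. No defining marker of these lists was at 0 in all libraries, and their part in the changes of the housekeeping genes was not tested.

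Choroid plexus RNA differed within both groups, so the comparison was repeated with its level as a covariate. The same 6 genes fell and the same 2 rose, among 7257 DEGs in either direction in place of 7756. Leaving out I/R replicate 3 and sham replicate 1, which held little of it, was chosen after seeing the data and left 2 libraries a group. Slc1a2, Gja1 and Gjb6 then fell and Sox9 rose, among 5255 DEGs in either direction. Shares of all genes by direction were not counted for either fit. Glul was at -0.77 with an edgeR adjusted p of 0.0532, Mfge8 at -0.51 (0.0566), Slc1a3 at -0.48 (0.0898) and Aqp4 at 0.44 (0.145), in each case close to the value from all 6 libraries.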

How the data were processed

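RNA-seq of hippocampus was compared between 3 I/R and 3 sham libraries, with groups taken from titles. According to its methods, the authors aligned reads with TopHat2 to an Ensembl genome and counted them per gene with HTSeq. The deposited raw counts per gene are taken to be these. The deposited FPKM per library were computed by the authors from the counts and a gene length. The submitters' processing notes name Bowtie 0.12.2 and the build mm8, whereas 40303 of the 41386 gene identifiers are of Ensembl's BALB/cJ annotation and 1083 are loci the authors assembled. The mice were C57BL/6, so reads were counted against another strain's annotation, and coordinates are on the BALB/cJ assembly as deposited. Strand use in counting is not given in the sources used here. The deposited p-value, adjusted p-value and fold change columns of the authors' own comparison were not used. In the table, 4 split lines were rejoined.

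Tests on counts used edgeR 4.0.16 and R 4.3.3 (filterByExpr, TMM, glmQLFit with robust estimation, glmQLFTest, no covariates), with Benjamini-Hochberg adjustment over 18569 genes. DEGs passed adjusted p 0.05 and a fold of 1.2 either way. The SE is the log2 fold change divided by the square root of F. Alternatives used DESeq2 1.42.0, limma 3.58.1, log2 of FPKM plus 1 or 0.1, other scalings and filters, a replicate block, a choroid plexus covariate and leaving out libraries. The fit was tested on simulated data. Permutation tests used scipy 1.17.1. With 37493042 to 44788547 counts a library, the smallest count of a housekeeping gene was 1167, so counting error was small beside the spread between libraries. Promoter sequences are from RefSeq, GRCm38.p6.

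All 10 genes are described with every library's value. From the other astrocyte genes the 5 highest and 5 lowest called log2 fold changes were named (3 rose in all), from each role list up to 3 called genes in each direction, and from each marker list its first 2 genes. Of the genes this rule names, 2 are not reported here. The 3 NFI genes, Sox8, Sox2 and Rorb, Itgb5, Axl, Gas6, Gpr17, Hspb1 and the hippocampal neuron genes were named after their values were seen. The genes and lists were chosen with earlier results of these data known.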

Additional observations from a re-analysis of the deposited data

How the results depend on the processing

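Of the 10 housekeeping genes none changed direction under any alternative. With a fold change over 2 there were 2760 DEGs in place of 7756, and 0 of the 10 genes were higher and 0 lower, with 1 of the 30 other astrocyte genes higher and 2 lower. With log2(FPKM + 1) 3 of the 10 were lower and 11 of the 30, and the median log2 fold change of the 10 was -0.27, as it was with log2(FPKM + 0.1), where 5 of the 30 were higher. With library size only this median was -0.25 and 5 of the 30 were higher. The median over all genes was then 0.28, against 0.26 with log2(FPKM + 0.1), 0.18 with log2(FPKM + 1) and 0.03 in the main fit. Without the libraries that held little choroid plexus RNA, DEGs numbered 5255, 1 of the 10 was higher and 3 lower, and 1 of the 30 higher. Without each library in turn, 1 to 2 of the 10 were higher and 4 to 7 lower, with a median of -0.55 to -0.48, 2 to 4 of the 30 were higher and 13 to 19 lower, and DEGs numbered 5330 to 7976. The cause of these differences was not tested. The 11 ratios that separated kept their direction without each library and with FPKM. The other 3 did not hold as firmly. Without I/R replicate 1, Glul to Slc1a2 went from 0.27 to -0.00, and Aqp4 to Aldh1l1 (0.52) and Gja1 to Gjb6 (-0.22) no longer overlapped. Gja1 to Gjb6 ran from -0.22 to 0.14 over the libraries left out.

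Same-numbered I/R and sham libraries had correlations of deviations of -0.0967, 0.0556 and -0.184. The highest of all, 0.267, was between I/R replicate 3 and sham replicate 1. Such correlations cannot tell whether libraries were prepared in pairs. With the replicate block 6332 DEGs were called, 1 of the 10 genes higher and 6 lower, and Aqp4 had an adjusted p of 0.0527. With 3 pools a group, the 95% intervals ran from -0.60 to -0.02 for Kcnj10 and from -0.02 to 0.47 for Aldh1l1, which limits what can be said of both.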
